A study of Mus musculus with 7 samples.

Results

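Fc receptors bind the constant part of antibodies and couple antibody-coated targets to the cell that carries them. The genes described here are the Fc gamma receptors Fcgr1, Fcgr2b, Fcgr3 and Fcgr4, the common gamma chain Fcer1g, the neonatal Fc receptor Fcgrt and the kinase Syk. They were chosen by gene symbol, and all 7 are among the 16047 genes of the deposited table. Values are RPKM, read numbers scaled by transcript length and library size. All 7 also averaged 1 RPKM or more over the libraries, as did 9594 genes in all, which were tested.

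The libraries came from neutrophils sorted from mouse livers 24 h after an injury by acetaminophen (AILI), and the study asked what the lack of Ly6C hi monocytes does to these neutrophils. One group, here PBS neutrophils, came from 4 mice that were injected with PBS, and the other, MC-21 neutrophils, from 3 mice that were injected with MC-21, an antibody to the chemokine receptor CCR2 that removes Ly6C hi monocytes, as 400 µL of medium with 29 µg/mL. Injections began 12 h before acetaminophen and were repeated every 24 h. The mice were males of 8 to 12 weeks labelled C57BL/6, all received acetaminophen, and from each liver 50000 cells with the gate CD11b+ Ly6C lo CX3CR1-GFP- Ly6G+ were sorted and sequenced by 3′ RNA-seq. The gate names a Cx3cr1 reporter, and the sources used here do not say which of the sequenced mice carried it. The control mice received PBS and not another antibody, so that the loss of monocytes and the injection of an antibody, itself a ligand of Fc receptors, cannot be told apart in this comparison. Each library is 1 mouse, named by its group and its replicate number, 5 to 8 for PBS and 2 to 4 for MC-21. The depth, read from the steps between low values, was about 2770000, 3330000, 2660000 and 3960000 mapped reads in PBS replicates 5 to 8 and 3570000, 1590000 and 2780000 in MC-21 replicates 2 to 4.

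The mouse receptors Fcgr1 (CD64, the high-affinity receptor for IgG), Fcgr3 (CD16) and Fcgr4 (CD16-2) are activating. They carry no signalling motif of their own and rely on Fcer1g, whose cytoplasmic immunoreceptor tyrosine-based activation motif (ITAM) is phosphorylated by Src family kinases and then binds Syk. Fcgr2b (CD32b) is the inhibitory receptor, with an immunoreceptor tyrosine-based inhibitory motif (ITIM) that recruits the phosphatase SHIP-1. Fcgrt works apart from this pathway, since it binds IgG in endosomes and returns it to the circulation. In the mouse, Fcgr1 is best known from monocytes, macrophages and some dendritic cells, Fcgr3 and Fcgr4 from neutrophils and other myeloid cells, and Fcgr2b in the liver from sinusoidal endothelium.

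The motifs that divide activating from inhibitory signalling are shown first, as coding sequence from the GENCODE transcripts of the mm9 build, in which the reads were also mapped. A search of the translated transcripts for the ITAM spacing found 1 match, in Fcer1g, at codons 65 to 79 of 86, and the inhibitory motif of Fcgr2b lies at codons 317 to 322 of 340. The looser pattern of the inhibitory motif also matched in other genes, 5 of the 7 in all, where it is not known as an ITIM. The tyrosine codons, on which phosphorylation starts the signal, are in capitals.
Fcer1g ITAM: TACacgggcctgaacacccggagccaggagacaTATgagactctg
Fcgr2b ITIM: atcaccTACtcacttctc

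On mm9, Fcgr2b (chr1:172890689-172906678, minus strand), Fcgr4 (chr1:172949051-172959892, plus strand), Fcgr3 (chr1:172981300-172995066, minus strand) and Fcer1g (chr1:173159703-173164496, minus strand) lie near each other on chromosome 1. Fcgr1 (chr3:96086832-96098179, minus strand), Fcgrt (chr7:52348363-52359192, minus strand) and Syk (chr13:52678542-52744161, plus strand) each lie on a chromosome of their own. All 7 are protein-coding genes, and the only overlap with another annotated gene is that of Fcgr4 with a U1 small nuclear RNA.

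Of the 7 genes, 1 was called lower in MC-21 neutrophils, 0 were called higher and 6 were not called (limma on log2(RPKM + 1), Benjamini-Hochberg adjusted p under 0.05 over all 9594 genes tested). The gene that fell was Fcgr1. Over all genes tested, 0.625% were called, 0.427% as lower and 0.198% as higher. An unadjusted p under 0.05 was reached by 3 of the 7 genes, Fcgr1, Fcgr3 and Fcgr4. The share of all genes at this unadjusted cut is not given, here or for the lists below, so such counts have no background beside them. For the same 3 genes the groups held no overlapping values, with MC-21 lower for 1 of them and higher for the other 2, beside 10.2% (lower) and 3.1% (higher) of all genes tested. The median log2 fold change was 0.15 over the 7 genes and -0.15 over all genes tested, of which 69.4% were below 0.

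**Figure D1:**
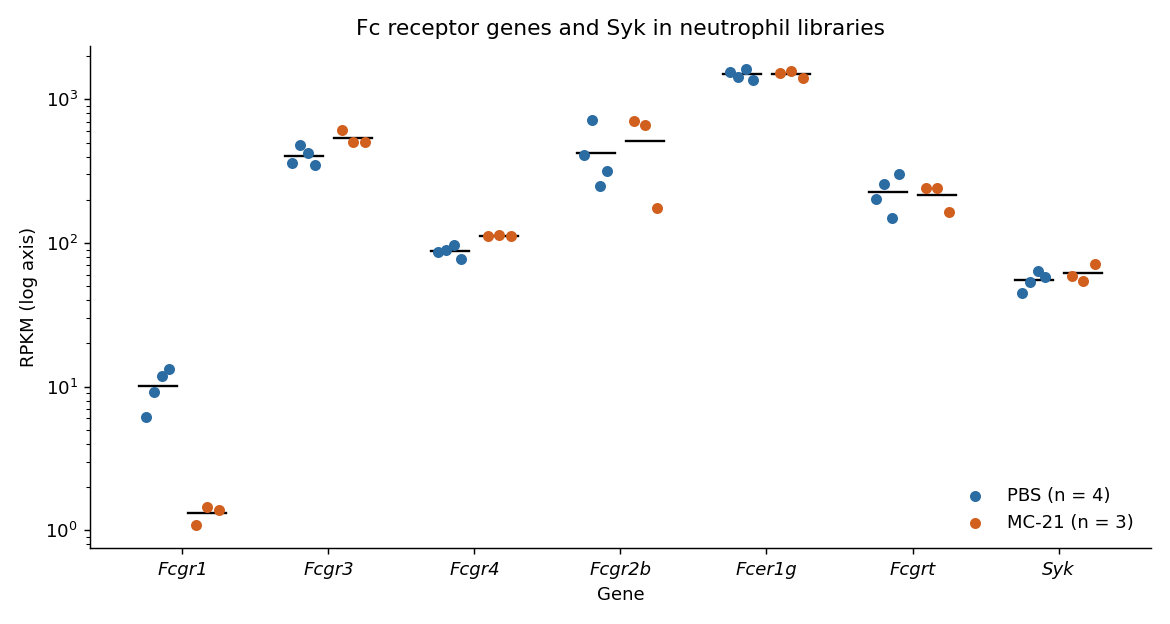
RPKM on a log axis of the 7 genes in each library, PBS in blue (n = 4) and MC-21 in orange (n = 3), with a black line at each group's mean. Fcgr1 lies between 6.15 and 13.3 in PBS libraries and between 1.08 and 1.46 in MC-21 libraries, while the points of Fcgr2b spread from 176 to 724 RPKM and those of Fcer1g stay between 1373 and 1632.

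Fcgr1 was the activating receptor that fell. Its RPKM was 6.15, 9.16, 11.9 and 13.3 in PBS replicates 5 to 8 and 1.08, 1.46 and 1.39 in MC-21 replicates 2 to 4. Every MC-21 library lay below every PBS library, and the lowest PBS library was replicate 5. The group means differed 7.73-fold, and the log2 fold change was -2.22 (standard error 0.25, 95% interval -2.79 to -1.65, limma adjusted p = 0.00851). Only 0.427% of genes tested were called in this direction, and 99.9% had a smaller absolute log2 fold change. An exact permutation test of this gene alone over all 35 ways of dividing the libraries gave p = 0.0286 (two-sided), the smallest that 4 against 3 libraries allow. The difference kept its size without the filter on low values, but its adjusted p was then 0.0587, and 0.117 with an unmoderated test on the log2 values.

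These levels rest on few reads, which can be counted. With the length of transcript Fcgr1-201, 2589 bases, every value differed by 0.000632 or less from a whole number of reads. The PBS libraries held 44, 79, 82 and 136 reads, and the MC-21 libraries 10, 6 and 10. In sum there were 341 reads in about 12720000 mapped reads from PBS neutrophils and 26 reads in about 7950000 from MC-21 neutrophils. The exact 95% Poisson intervals, which cover counting error only, reached from 0.518 to 3.17 RPKM over the 3 MC-21 libraries, and the lower end of the PBS library with the fewest reads was 4.47 RPKM. The counting intervals of the groups thus did not overlap. As sequencing of sorted cells in bulk gives an average, fewer Fcgr1-expressing cells among those sorted and less Fcgr1 RNA per cell cannot be told apart.

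Fcgr3 and Fcgr4, the activating receptors that mouse neutrophils are known to carry, had values on the other side. The RPKM of Fcgr3 was 362, 479, 422 and 350 in PBS libraries and 607, 501 and 502 in MC-21 libraries. The lowest MC-21 library stood just above the highest PBS library, replicate 6. The log2 fold change of Fcgr3 was 0.42 (95% interval 0.08 to 0.75, p = 0.0196 and adjusted p = 0.258 from limma), and its exact permutation p was 0.0571.

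Fcgr4 was the steadiest of the 4 Fc gamma receptors. Its RPKM was 85.9, 90.1, 96.3 and 76.9 in PBS libraries and 112, 114 and 112 in MC-21 libraries. The 3 MC-21 libraries lay together, with a coefficient of variation of 0.772%, all above the PBS libraries, for which it was 9.28%. Its log2 fold change was 0.37 (95% interval 0.08 to 0.66, p = 0.018 and adjusted p = 0.251 from limma), with an exact permutation p of 0.0286. Neither gene passed the threshold over all genes. Relative to the median of all genes, which lay at -0.15, both stood further out: with each library centred on its median their log2 fold changes were 0.58 for Fcgr3 and 0.53 for Fcgr4 (limma adjusted p = 0.154 and 0.16).

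The promoters of the 3 activating receptors are shown because Fcgr1 fell while Fcgr3 and Fcgr4 had their values on the other side. Each is the 250 bases before the start of the RefSeq gene (GRCm38.p6, a later build than that of the deposited values), written on the gene's strand, and all 7 genes had an entry. Fcgr3 has 2 starts, and the sequence before the first listed is shown. Capitals mark 3 motifs searched on both strands: TTCNNNGAA (the palindrome of the gamma-activated site), the core of the interferon-stimulated response element (ISRE; GAAA, any 2 bases, GAAA) and GAGGAA (the core of the PU.1 type). In 250 bases before the start, TTCNNNGAA occurs in 7.02% of 32851 mouse promoters, the ISRE core in 2.98% and GAGGAA in 23.3%.
Fcgr1 (chr3:96293970-96294219, minus strand): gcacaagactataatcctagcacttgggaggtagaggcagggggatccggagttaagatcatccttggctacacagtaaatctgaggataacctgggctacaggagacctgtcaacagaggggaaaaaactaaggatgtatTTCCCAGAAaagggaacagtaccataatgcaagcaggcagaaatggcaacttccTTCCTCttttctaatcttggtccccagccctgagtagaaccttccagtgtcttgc
Fcgr3 (chr1:171059404-171059653, minus strand): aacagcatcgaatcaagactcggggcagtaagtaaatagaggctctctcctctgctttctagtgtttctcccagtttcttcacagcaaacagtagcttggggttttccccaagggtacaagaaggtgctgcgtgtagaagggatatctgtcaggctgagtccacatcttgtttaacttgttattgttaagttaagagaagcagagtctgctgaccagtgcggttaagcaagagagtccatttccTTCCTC
Fcgr4 (chr1:171018676-171018925, plus strand): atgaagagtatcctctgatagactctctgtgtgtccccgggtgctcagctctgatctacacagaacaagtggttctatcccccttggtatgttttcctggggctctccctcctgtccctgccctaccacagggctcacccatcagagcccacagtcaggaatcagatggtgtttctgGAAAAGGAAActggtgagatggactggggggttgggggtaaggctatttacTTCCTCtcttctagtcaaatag

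GAGGAA, read on the other strand as TTCCTC, stands in all 3, with its first base 55 bases before the start in Fcgr1, 6 in Fcgr3 and 22 in Fcgr4. From the other start of Fcgr3 the distance is 15 bases. TTCNNNGAA was found in Fcgr1, 109 bases before the start, and the ISRE core in Fcgr4, 73 bases before it. Of the remaining genes, Syk had GAGGAA before 1 of its 2 starts, and Fcgr2b, Fcer1g and Fcgrt had none of the 3 motifs. A match is a description of letters and no evidence of binding in these cells.

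Fcgr2b, the inhibitory receptor, varied more between mice of a group than between groups. Its RPKM was 413, 724, 248 and 317 in PBS libraries and 710, 660 and 176 in MC-21 libraries. MC-21 replicate 4 had the lowest value of all, while the other MC-21 libraries lay close to the highest PBS library, replicate 6. The log2 fold change was 0.15 with a wide interval, -0.97 to 1.28 (limma adjusted p = 0.911), and it ran from -0.20 without MC-21 replicate 2 to 0.80 without MC-21 replicate 4. Of all genes tested, 97.3% had a smaller residual spread than Fcgr2b.

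Markers of other cells that express Fcgr2b were set beside that spread. The summed RPKM of 7 liver endothelial markers, which include Stab2, Lyve1 and Clec4g, was 2570, 1826, 1215 and 2239 in PBS libraries and 1542, 2392 and 1379 in MC-21 libraries. The libraries with the lowest sums, PBS replicate 7 and MC-21 replicate 4, were also those with the least Fcgr2b. The other libraries did not keep one order, since PBS replicate 6 and MC-21 replicate 2, with the most Fcgr2b, had only middling or low sums of 1826 and 1542, and PBS replicate 5 had the highest sum at an intermediate Fcgr2b. Clec4g was the most abundant of these markers, at 474 to 1539 RPKM, none of the 7 was at 0, and 0 of 7 were called. B cells also express Fcgr2b. The 5 B cell markers in the table summed to 10.7, 30.1, 13 and 14.2 RPKM in PBS libraries and 8.24, 6.14 and 9.73 RPKM in MC-21 libraries, most of it Cd79b, with the highest sum in PBS replicate 6 and all MC-21 sums below those of PBS libraries. Cd79b, with a log2 fold change of -0.78, had an unadjusted p of 0.0375 and an adjusted p of 0.316 (limma). The part of either cell type in the Fcgr2b values was not tested.

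The ratio of activating to inhibitory receptors varied from mouse to mouse. The summed RPKM of Fcgr1, Fcgr3 and Fcgr4 over that of Fcgr2b was 1.1, 0.798, 2.14 and 1.39 in PBS libraries and 1.02, 0.934 and 3.49 in MC-21 libraries. The groups overlapped, and the highest ratio was that of MC-21 replicate 4. The log2 difference of 0.23 turned to -0.38 without that library. Fcgr1 made up between 0.704% and 1.75% of the summed RPKM of the 4 receptors in PBS libraries and between 0.0756% and 0.176% in MC-21 libraries, so that it added little to this ratio.

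**Figure D2:**
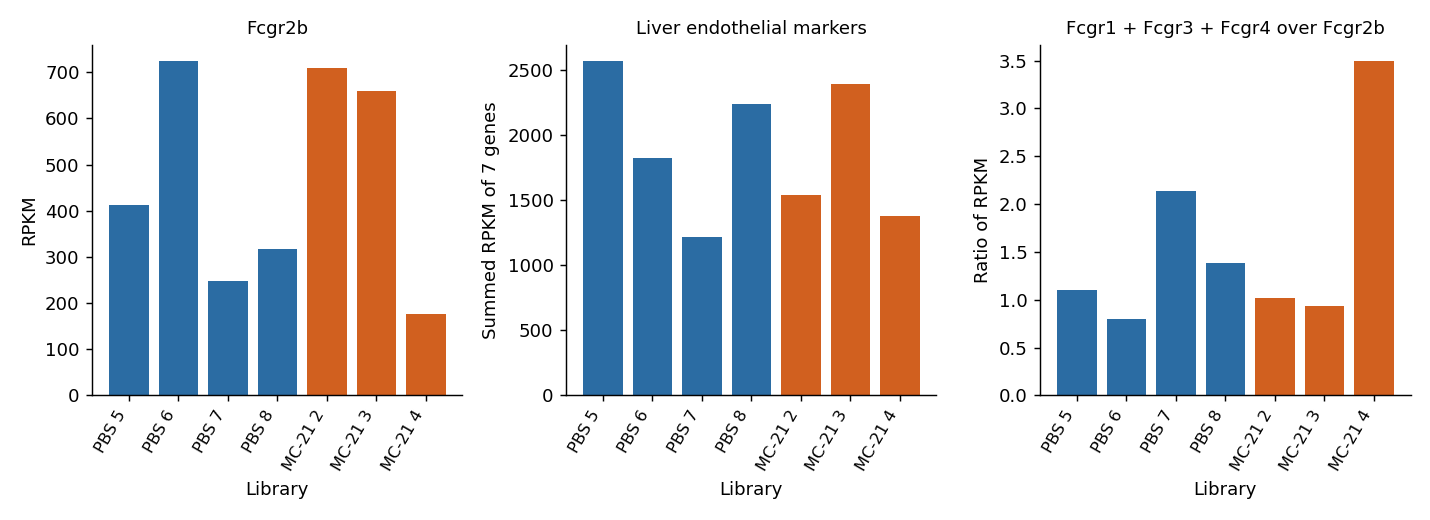
Bars give, for each library (PBS blue, MC-21 orange), the RPKM of Fcgr2b, the summed RPKM of 7 liver endothelial markers, and the ratio of the summed RPKM of Fcgr1, Fcgr3 and Fcgr4 to that of Fcgr2b. MC-21 replicate 4 has the lowest Fcgr2b (176 RPKM) and the highest ratio (3.49), and the groups overlap in all 3 panels.

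Fcgr2b and Fcgr3 are close copies, and reads could pass from one to the other. Their longest coding sequences were identical at 69.5% of aligned positions, and the longest run of bases that their transcripts share is 129 bases. Of the 50-base words in Fcgr3 transcripts, 10.2% also occur in Fcgr2b. The shared words end 719 bases before the 3′ end of Fcgr3-001 and 886 bases before that of Fcgr2b-001. RPKM values do not show where on a transcript the reads lay, and an exchange of reads was not tested. No other pair of the 7 genes shared a 50-base word, and how the authors treated reads with several matches is not given in the sources used here.

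Fcer1g, the chain through which the activating receptors signal, spread least over the 7 libraries. Its RPKM was 1543, 1427, 1632 and 1373 in PBS libraries and 1518, 1568 and 1419 in MC-21 libraries, and the groups overlapped throughout. The log2 fold change was 0.01 with a narrow interval, -0.25 to 0.26 (limma adjusted p = 0.978). Between the highest and the lowest of the 7 libraries the difference was 1.19-fold, and 2.14% of genes tested had a smaller residual spread. Set against Fcer1g, the RPKM of Fcgr4 was a ratio of 0.0557 to 0.0631 in PBS libraries and 0.0725 to 0.0789 in MC-21 libraries, without overlap, whereas that of Fcgr3 overlapped between the groups.

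Syk, the kinase that binds the phosphorylated ITAM, had 44.9, 53.8, 63.5 and 58.2 RPKM in PBS libraries and 58.6, 54.6 and 71.8 in MC-21 libraries. The groups overlapped, and MC-21 replicate 4 was highest. Its log2 fold change was 0.16 (95% interval -0.21 to 0.53, limma adjusted p = 0.698).

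Fcgrt had 201, 256, 150 and 304 RPKM in PBS libraries and 240, 240 and 164 in MC-21 libraries. The lowest and the highest value both belonged to PBS neutrophils. The log2 fold change was -0.06 (95% interval -0.61 to 0.49, limma adjusted p = 0.932) and turned to 0.10 with each library centred on its median. B2m, the light chain that Fcgrt needs, overlapped between the groups as well, with a log2 fold change of -0.17 (limma adjusted p = 0.795).

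**Figure D3:**
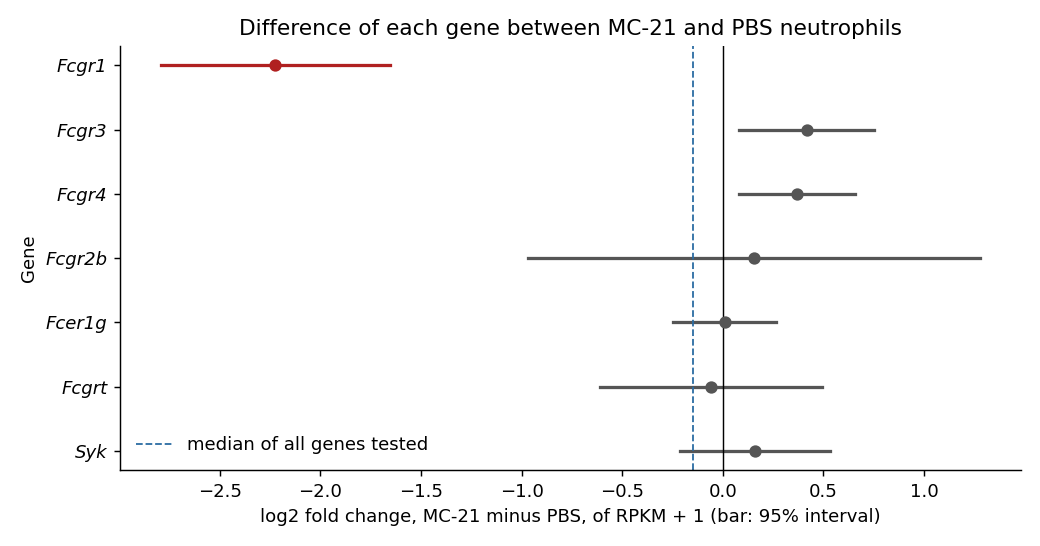
Points give the log2 fold change of RPKM + 1, MC-21 minus PBS, of each gene, and bars its 95% interval from limma, in red where the adjusted p was under 0.05. Fcgr1 stands at -2.22, the intervals of Fcgr3 and Fcgr4 begin just above 0, and the widest interval is that of Fcgr2b. The dashed line marks the median of all genes tested, -0.15.

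Genes with a like profile over the 7 libraries were sought by the root mean square distance between centred log2(RPKM + 1) values. The nearest to Fcgr1 were Nr1h3 (a distance of 0.27), the nuclear receptor LXR alpha, Aif1 (0.27), the macrophage protein IBA1, and Axl (0.36), a receptor for apoptotic cells. Chosen for a profile like that of Fcgr1, group difference included, all 3 were lower in MC-21 neutrophils without overlap. Their limma adjusted p of 0.0172, 0.000769 and 0.0139 are therefore no separate test. Aif1, for example, had 43.4, 48, 52.4 and 47.6 RPKM in PBS libraries and 10.2, 12.9 and 10.7 in MC-21 libraries. Nearest to Fcgr3 were Rock1 (0.066), Cxcr2 (0.08) and AI413582 (0.083), and nearest to Fcgr4 were Ugt1a10 (0.063), Clec4d (0.067) and Sub1 (0.071). Rock1, at 0.935 to 2.35 RPKM, and Ugt1a10, at 0.616 to 1.51 RPKM, were low. At such levels the 1 RPKM added before the log2 narrows differences, so their likeness is partly set by it. Cxcr2, a chemokine receptor of neutrophils, had 160, 221, 200 and 149 RPKM in PBS libraries and 257, 207 and 242 in MC-21 libraries. The nearest to Fcgr2b were Kif20a (0.30), Emc2 (0.30) and C1d (0.31), and to Fcer1g Ttc13 (0.049), Pfdn6 (0.051) and Snrpf (0.052), whose groups all overlapped. Kif20a, at 0.184 to 2.77 RPKM, and C1d, at 0.752 to 4.1 RPKM, were low as well. Among the 7 genes themselves, the closest pair was Fcgr3 and Fcgr4, at 0.13, and Fcgr1 was at least 1.15 from every other.

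Since Fcgr1 is known from monocytes and macrophages, their markers were set beside it. Of 13 such markers listed, 12 were tested, and 4 were called lower and 0 higher, beside 0.427% and 0.198% of all genes tested. The summed RPKM of the 13 was 588, 682, 703 and 675 in PBS libraries and 386, 368 and 307 in MC-21 libraries. The genes called were Ccr2, the receptor that MC-21 binds, and the complement genes C1qa, C1qb and C1qc. Ccr2 had 1.91, 3.26, 2.3 and 2.18 RPKM in PBS libraries and 0.39, 0 and 0.2 in MC-21 libraries (limma adjusted p = 0.0263). With a mean of 2.42 RPKM in PBS and 0.197 RPKM in MC-21 libraries, Ccr2 passed the filter of 1 RPKM only through the PBS libraries. C1qb, which fell most of the C1q genes, had a PBS mean of 155 ± 19.6 RPKM (SD, n = 4) and an MC-21 mean of 59.6 ± 6.44 RPKM (SD, n = 3), with a limma adjusted p of 0.00816. Cd68, the most abundant of the list by its mean over all 7 libraries though below C1qb in PBS libraries, had 152 ± 24.7 RPKM (SD, n = 4) and 90.3 ± 2.81 RPKM (SD, n = 3), with no overlap and a limma adjusted p of 0.0786. An unadjusted p under 0.05 was reached by 8 of the 12, all lower, with no share of all genes at that cut to set beside them. Adgre1, which codes for F4/80, and Mrc1 overlapped between the groups.

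As a share of its PBS mean, Fcgr1 in MC-21 neutrophils was 12.9% ± 1.98 (SD, n = 3). Of the 12 markers, Ccr2 alone had a lower mean share, 8.15% ± 8.07 (SD, n = 3), from MC-21 values near 0 RPKM. C1qb stood at 38.5% and Csf1r at 65.4%. The ratio of Fcgr1 to C1qb was between 0.0467 and 0.0905 in PBS libraries and between 0.0166 and 0.0264 in MC-21 libraries. Its ratio to Csf1r was between 0.148 and 0.188 in PBS libraries and between 0.022 and 0.0442 in MC-21 libraries. Neither ratio overlapped between the groups, and neither was tested. The markers of resident Kupffer cells were not called (0 of 3 tested). The 5 listed summed to 65.7, 67.5, 56.3 and 84.4 RPKM in PBS libraries and 42.8, 64.4 and 34.3 in MC-21 libraries, led by Marco. All 3 tested had log2 fold changes below 0 and overlapping groups. Their median was -0.51, and over all genes tested 69.4% were below 0 with a median of -0.15. Cd5l, at -0.67, had an unadjusted p of 0.0275 and an adjusted p of 0.285, and Marco, at -0.51, an unadjusted p of 0.0345 and an adjusted p of 0.307 (limma). The part of monocytes, macrophages and Kupffer cells among the sorted cells in the fall of Fcgr1 was not tested.

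**Figure D4:**
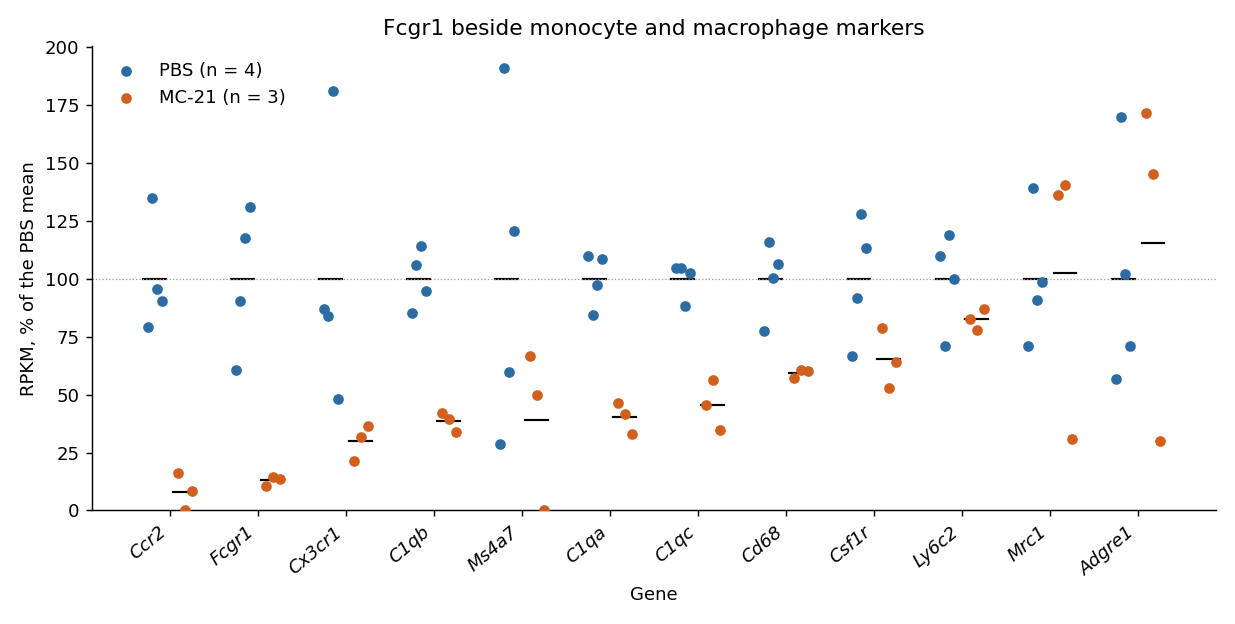
RPKM of Fcgr1 and of 11 of the monocyte and macrophage markers tested, as a percentage of each gene's PBS mean, by library (PBS blue, n = 4; MC-21 orange, n = 3) with a line at each group's mean. In MC-21 libraries Fcgr1 lies between 10.7% and 14.4%, with a mean below those of all markers shown but Ccr2, while Mrc1 and Adgre1 spread around 100%.

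The sorted cells carried the markers of their label. S100a9, the most abundant of 12 neutrophil markers, ranged from 12275 to 25041 RPKM over the 7 libraries. The summed RPKM of the 12 was 31678, 18552, 27176 and 20739 in PBS libraries and 28459, 36289 and 42080 in MC-21 libraries, with overlap, and 0 of them were called. An unadjusted p under 0.05 was reached by 3 with MC-21 higher and 1 with MC-21 lower. S100a8, with 3167 ± 658 RPKM (SD, n = 4) and 5793 ± 1962 RPKM (SD, n = 3), had an unadjusted p of 0.0075 and an adjusted p of 0.185 (limma). Camp, a granule peptide of immature neutrophils, had the largest difference of the list and the other sign, with 29.9 ± 20.2 RPKM (SD, n = 4) and 7.26 ± 6.83 RPKM (SD, n = 3), overlapping groups and a log2 fold change of -1.89 (unadjusted p = 0.0263, adjusted p = 0.281). Csf3r, the receptor for the growth factor G-CSF, differed by -0.01 on the log2 scale (limma adjusted p = 0.974).

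Markers of other cells, most of them known to carry Fc receptors, did not pass the test. Those of dendritic cells (0 of 3 tested called, led by Clec9a over all libraries and by Ccr7 in PBS libraries), B cells (0 of 3), natural killer cells (0 of 1, led by Gzma), T cells (0 of 2, led by Cd3d), basophils and mast cells (0 of 4, led by Hdc) and eosinophils (0 of 1, led by Siglecf) held no call. Ccr7, a homing receptor of mature dendritic cells and lymphocytes, had 4.59 ± 2.42 RPKM (SD, n = 4) and 1.24 ± 0.234 RPKM (SD, n = 3), without overlap (log2 fold change -1.22, unadjusted p = 0.0045 and adjusted p = 0.155 from limma). Cd3d had 2.71 ± 0.333 RPKM (SD, n = 4) and 1.58 ± 0.548 RPKM (SD, n = 3), also without overlap (log2 fold change -0.55, unadjusted p = 0.0328 and adjusted p = 0.304 from limma). Xcr1 was at most 0.0812 RPKM in PBS libraries, 1 of them at 0, and at 0 in MC-21 libraries, and was not tested. Hdc, which neutrophils can express too, had 305 ± 65 RPKM (SD, n = 4) and 320 ± 32.8 RPKM (SD, n = 3), while Fcer1a, the IgE-binding chain of basophils and mast cells, was at 0 in 6 of 7 libraries. Hepatocyte markers (0 of 6 called) were led over all libraries by Apoa1, at 46.4 to 126 RPKM.

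The wider pathway was described from 8 lists with 116 genes, of which 113 were in the table and 91 were tested. Of these, 1 was called lower and 1 higher, beside 0.427% and 0.198% of all genes tested. Groups without overlap were found for 9.89% with MC-21 lower and 7.69% with MC-21 higher, beside 10.2% and 3.1% of all genes tested. The median log2 fold change over the 91 genes was -0.05. Both calls were in the list named the inhibitory arm. Its 25 genes are mainly phosphatases, adaptors and receptors, most but not all of which hold back tyrosine kinase signalling.

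Dok2, an adaptor that restrains Ras signalling, fell. It had 12.4, 24.8, 33.1 and 15.6 RPKM in PBS libraries and 6.2, 3.29 and 5.44 in MC-21 libraries. The groups were apart, and the log2 fold change was -1.85 (standard error 0.33, limma adjusted p = 0.0448). Clec12a, an inhibitory lectin receptor with an ITIM, rose. It had 19.9, 25, 12.5 and 17.6 RPKM in PBS libraries and 82.5, 71.3 and 43 in MC-21 libraries. No library crossed over, and the log2 fold change was 1.74 (standard error 0.27, limma adjusted p = 0.0287).

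Most genes of the inhibitory arm were not called, 23 of 25. With the calls included, an unadjusted p under 0.05 was reached by 3 with MC-21 lower and 5 with MC-21 higher. The share of all genes at that cut is not given, so nothing is read from these counts. Lilrb4a, the most abundant, had 731 ± 62.9 RPKM (SD, n = 4) and 897 ± 142 RPKM (SD, n = 3) and overlapped. Lair1, a receptor for collagens, had the next largest log2 fold change of the list, 1.25 (unadjusted p = 0.0267 and adjusted p = 0.283 from limma), with overlap. SHIP-1 (Inpp5d), the phosphatase that Fcgr2b recruits, had 27.2, 32.2, 32.3 and 35.5 RPKM in PBS libraries and 27.4, 32.2 and 42.6 in MC-21 libraries, with a log2 fold change of 0.08 (limma adjusted p = 0.868). Inpp5d was named for its tie to Fcgr2b, after its values were seen.

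**Figure D5:**
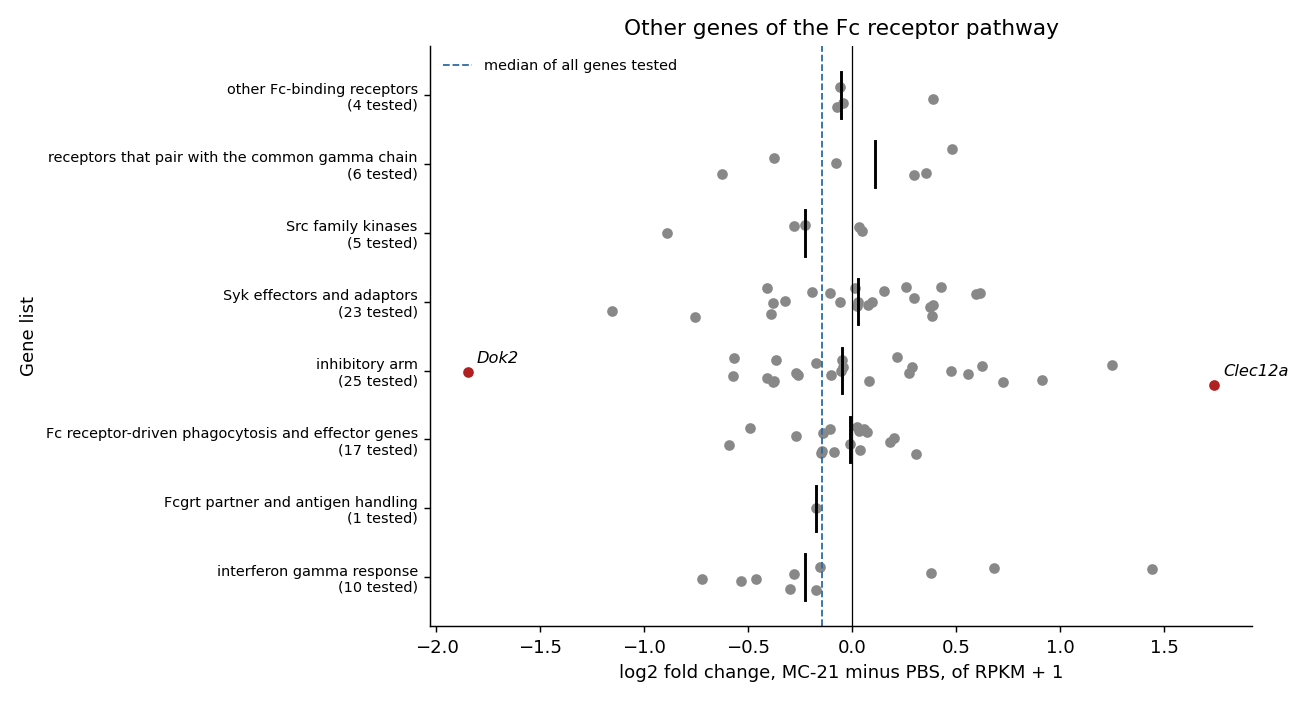
Each point is a gene of a pathway list at its log2 fold change of RPKM + 1, MC-21 minus PBS, in red where the limma adjusted p was under 0.05, with a black line at each list's median and a dashed line at the median of all genes tested. Only Dok2 (-1.85) and Clec12a (1.74), both in the inhibitory arm, are red.

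Among the Src family kinases, which phosphorylate the ITAM, 0 of 5 tested were called. Fgr, the most abundant, had 151, 150, 163 and 150 RPKM in PBS libraries and 136, 121 and 134 in MC-21 libraries. All 3 MC-21 libraries were below the PBS libraries, by a log2 fold change of -0.23 (limma adjusted p = 0.412). Lck, the kinase of T cells, had a larger one, -0.89 (unadjusted p = 0.0194, adjusted p = 0.256), at 3.19 ± 0.913 RPKM (SD, n = 4) and 1.38 ± 1.13 RPKM (SD, n = 3).

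Of the list of Syk effectors and adaptors, which also holds adaptors of other receptors such as Hcst, 0 of 23 tested were called. The largest differences with an unadjusted p under 0.05 were those of Lat2, a linker that Syk phosphorylates, with a log2 fold change of -1.16 (limma adjusted p = 0.075), Gab2, a docking adaptor of phosphoinositide 3-kinase, with 0.60 (adjusted p = 0.165), and Hcst (DAP10), with 0.43 (adjusted p = 0.288). Lat2 had 4.11, 7.9, 8.1 and 7.55 RPKM in PBS libraries and 2.01, 2.63 and 2.8 in MC-21 libraries. Its groups were apart, as were those of Gab2, at 6.17 ± 0.618 RPKM (SD, n = 4) and 9.83 ± 0.817 RPKM (SD, n = 3). Tyrobp (DAP12), an ITAM adaptor like Fcer1g and the most abundant gene of the list, had 5085 ± 1088 RPKM (SD, n = 4) and 6145 ± 514 RPKM (SD, n = 3) and overlapped.

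The receptors that pair with Fcer1g besides the Fc receptors (0 of 6 called) were led by Clec4d, a lectin that senses fungal and mycobacterial lipids. It had 430, 510, 529 and 413 RPKM in PBS libraries and 599, 564 and 564 in MC-21 libraries, apart from each other, with a log2 fold change of 0.30 (unadjusted p = 0.0455, adjusted p = 0.329). The genes of phagocytosis and its machinery (0 of 17 called) were led by Cfl1, which cuts actin filaments. Dock2, an activator of Rac in leukocytes, had the largest difference among them with an unadjusted p under 0.05, a log2 fold change of -0.59 (adjusted p = 0.256). Other receptors for antibodies (0 of 4 called) were low throughout, and the most abundant over all libraries, Pigr, which carries IgA and IgM across epithelia, had 1.95 to 8 RPKM.

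Fcgr1 is a known target of interferon gamma, so genes of that response were read beside it. Of 10 tested, 0 were called, 7 had log2 fold changes below 0, and the median was -0.23. Over all genes tested, 69.4% were below 0 and the median was -0.15. Ifngr1, a chain of the receptor, had 82.6, 94.5, 81.4 and 87.2 RPKM in PBS libraries and 129, 126 and 166 in MC-21 libraries, higher without overlap (log2 fold change 0.68, limma adjusted p = 0.076). Socs1, an inhibitor of that pathway, had 14.5 ± 10.2 RPKM (SD, n = 4) and 36.7 ± 9.63 RPKM (SD, n = 3), with overlap between the groups (adjusted p = 0.155).

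Of the nearest genes in the table on either side of the receptors, Fcer1g, Fcgrt and Syk, 7 were tested and 0 were called. Sdhc, next to Fcgr3 on the far side from Fcgr4, overlapped between the groups, with a log2 fold change of -0.19 (limma adjusted p = 0.62), as did Fcrla beside Fcgr2b (-0.06), Apoa2 (-0.04) beside Fcer1g and Rcn3 (0.20) beside Fcgrt. Hist2h2bb, 3908 bases from Fcgr1, was under 1 RPKM in both groups on average. Auh, the next gene in the table after Syk, had 15.5 ± 2.65 RPKM (SD, n = 4) and 22.7 ± 4 RPKM (SD, n = 3), without overlap (adjusted p = 0.274).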

How the data were processed

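RNA-seq libraries of 7 mice, 4 PBS and 3 MC-21, were analysed. The authors deposited RPKM values per gene and library. Per the submitters' processing notes, bcl2fastq, HISAT 0.1.5, SAMtools and Partek 6.6 were used with the build mm9. The annotation, filters, strand and treatment of reads with several matches are not given in the sources used here. Length scaling of 3′ reads lowers the RPKM of long transcripts, so levels of different genes compare only roughly.

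Genes that averaged 1 RPKM or more were tested on log2(RPKM + 1) with limma 3.58.1 (lmFit, eBayes with a trend; R 4.3.3), with Benjamini-Hochberg adjustment over the 9594 genes. The fold change understates that of low genes. On simulated data for this comparison with 9594 genes, 68 of 100 genes changed by 1 and 94 of 100 changed by 2 on the log2 scale were called, with 11 false calls. The changed genes were drawn only from genes with a higher mean level than Fcgr1. The noise was independent for each gene and library, with no effect shared by the genes of a library. These shares therefore do not apply to genes as low as Fcgr1. Each of the 7 genes also had an exact permutation test (two-sided, 35 divisions of the libraries).

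The depth was taken from the spacing of low RPKM values and the transcript lengths: 79.5% of 2826 low values differed from a whole number of reads by 0.1 or less. At this depth a gene near 1 RPKM rests on few reads. Reads of Fcgr1 were counted with that depth. Symbols were matched to GENCODE transcripts of the build mm9 and to RefSeq promoters, Syk under its older name Sykb. Python 3.11.15, numpy 2.4.6, pandas 2.3.3, scipy 1.17.1 and matplotlib 3.10.9 were used.

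The genes and lists were chosen with earlier results of these data known. Named are the 7 genes. Of each pathway list, genes with an adjusted p under 0.05, up to 3 with the largest fold change among those with an unadjusted p under 0.05, and the most abundant gene are named. Of each marker list, the most abundant gene, those called and defining genes at 0 are named, and for 5 genes the 3 nearest profiles and for all the neighbours in the table. Some genes that this rule covers are not reported here, and they stayed in the fits and counts. Other genes named were chosen after their values were seen. Alternatives were a pseudocount of 0.1, no filter, an average of 5 RPKM or more, quantile normalization, centring on library medians, limma without a trend, unmoderated tests on log2 and RPKM values, and leaving out each library.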

Additional observations from a re-analysis of the deposited data

How the results depend on the processing

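The fall of Fcgr1 kept its direction in all 15 alternatives and its call in 12. Without the filter on low values its log2 fold change of -2.22 had an adjusted p of 0.0587, with an unmoderated test on log2 values it was -2.22 (0.117), and on RPKM values -2.95 (0.276). In these 3 settings 0 of the 7 genes were called, and 6, 4 and 5 of all genes against 60. The unmoderated tests borrow no spread across genes. Without the filter more genes are tested and enter the moderated fit. The unadjusted limma p of Fcgr1 itself rose there, from 7.78e-06 to 5.21e-05, at the same fold change. Leaving out 1 library moved Fcgr1 between -2.42 and -2.09 (adjusted p 0.00417 to 0.0434) and all genes called between 9 (without PBS replicate 8) and 102 (without PBS replicate 6). It moved Fcgr2b between -0.20 and 0.80, Fcer1g between -0.030 and 0.053 and Fcgrt between -0.24 and 0.12, so that each changed sign. Fcer1g was -0.025 with quantile normalization and Fcgrt 0.10 with centring on library medians. Fcgr3 and Fcgr4 stayed above 0 and uncalled in all alternatives. No paired analysis was possible because the groups share no replicate numbers. Depth limits the genes near 1 RPKM, where a library holds few reads of a gene.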
